A study of Mus musculus with 14 samples.

Results

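The peaks described here were the Igf2bp3-RIP peaks whose named gene had no row in the Lin28a-RIP table. RIP (RNA immunoprecipitation) recovers the RNA held by a protein with an antibody and sequences it, and a peak is a stretch of the genome where that RNA piled up. Of 19465 Igf2bp3-RIP peaks, 4260 (21.9%) were named for such genes, and they belonged to 1789 of the 4527 genes with an Igf2bp3-RIP peak (39.5%). They are called Igf2bp3-only peaks and Igf2bp3-only genes below, and the other 2738 genes, which had at least 1 Lin28a-RIP row, are called shared genes. A missing row means that no Lin28a-RIP peak was listed for the gene, which is not the same as no binding.

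The study compared control with Lin28a-positive (Lin28a+) mouse muscle stem cells (MuSCs), cultured from skeletal muscle with no treatment. It held 14 libraries, 2 for each kind and group: Igf2bp3-RIP, m6A-RIP (RNA recovered with an antibody to N6-methyladenosine) and input RNA in control and Lin28a+ MuSCs, and Lin28a-RIP in Lin28a+ MuSCs alone. The choice of genes therefore rests on the Lin28a+ cells. The study's results describe Lin28a+ MuSCs as cells sorted by flow cytometry from muscle of Lin28a-CreERT2; LSL-tdTomato mice, in which Cre made from the Lin28a locus switches on a red reporter. Its methods also describe MuSCs infected with a Lin28a lentivirus. The labels give only the genotypes Control and Lin28a positive, and no strain, age or number of animals. Nothing in the labels says that the 2 libraries of a group came from separate cultures or animals, so the p-values measure only the spread between these libraries.

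Igf2bp3 is an RNA-binding protein of the Igf2 mRNA-binding protein family, whose members are known as readers of m6A that bind mRNA mainly in its 3′ part and slow its decay. Lin28a is an RNA-binding protein of embryonic cells, known for blocking the maturation of let-7 microRNAs and for binding many mRNAs directly. MuSCs are the resident stem cells of skeletal muscle, and Pax7, Myf5 and Myod1 are their classical transcription factors.

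Total counts over the listed peaks or genes ranged from 9215355 to 34142094 in the 4 Igf2bp3-RIP libraries, with replicate 2 the deeper in both groups. They were 33908110 and 36610494 in Lin28a-RIP, 21350962 to 31830638 in m6A-RIP and 4842915 to 6220960 in input. All levels below are CPM, counts per 1000000 of these totals. Of 12 MuSC and myoblast markers, 11 were listed in the input, with a summed level of 9580 and 10000 CPM in control MuSCs and 12000 and 12100 CPM in Lin28a+ cells (Chodl was not listed). The members of this sum moved both ways, with Myog rising from 748 and 774 to 2790 and 2840 CPM and Megf10 falling from 398 and 400 to 87.3 and 88.2 CPM. The summed endothelial markers reached at most 0.651 CPM (2 of 6 listed) and those of macrophages and other blood cells at most 3.18 CPM (5 of 6 listed). The fibro-adipogenic markers (5 of 8 listed) summed to 144 and 153 CPM in control MuSCs and 77.7 and 77.8 CPM in Lin28a+ cells, mostly Gsn, itself an Igf2bp3-only gene, while Ly6a rose from 3.84 and 4.58 to 13.6 and 12.7 CPM and Pdgfra was at most at 0.235 CPM. The smooth muscle and pericyte markers (5 of 6 listed) summed to 5590 and 5700 CPM and to 7560 and 7580 CPM, mostly Acta2, while Tagln fell from 278 and 293 to 77.8 and 76.1 CPM, with Myh11 at most at 0.0804 CPM.

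Where an Igf2bp3-only peak lay on a microRNA gene or ran over a gene's start, its sequence can be shown. Of the 1789 genes, 60 were microRNA genes with 153 peaks, but 9 of these peaks touched the microRNA gene and 134 lay in another gene. Wholly inside a peak lay 8 hairpins with 13 mature microRNAs and 13 different seeds (bases 2 to 8, in capitals; RefSeq, GRCm38.p6, 5′ to 3′). The 3 hairpins with a single listed mature sequence and both arms of miR-5617, which had the largest Igf2bp3-RIP difference of the 8, are given here. These are the sequences under the peak, and no mature microRNA was measured.
mmu-miR-130c: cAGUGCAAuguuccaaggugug
mmu-miR-1896: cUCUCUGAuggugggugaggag
mmu-miR-6363: uGUAGACUggacuguccucaaa
mmu-miR-5617-5p: gUAAGUGAgggcaagccuucugg
mmu-miR-5617-3p: cAGGCGGCcucagcucucacu
The peak over Mir130c (chr9:53400663-53401652) held 46.8 and 42.0 CPM in control MuSCs and 62.1 and 65.6 CPM in Lin28a+ libraries. The peak over Mir5617 (chrX:20862588-20863390) held 9.44 and 24.1 CPM in control MuSCs and 37.3 and 77.9 CPM in Lin28a+ libraries, a log2 difference of 1.73 that did not pass the test (edgeR quasi-likelihood test, adjusted p = 0.658). Both Lin28a+ libraries were above both control libraries for these 2 peaks, but for Mir5617 the 2 libraries of a group were over 2 times apart.

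At gene starts, 43 Igf2bp3-only peaks in 42 genes overlapped the window from 250 bases before to 50 bases after the annotated start of their own gene, and 32 of them, in 31 genes, reached upstream of the start. The stretches of 4 such peaks upstream of the start, with at most 30 bases past it, follow as the strand of the gene reads (RefSeq, GRCm38.p6). They were chosen for the genes they precede, a receptor kinase of the neuromuscular junction (Musk), an architectural chromatin factor of embryonic cells (Hmga2), a Hippo pathway kinase (Lats2) and a forkhead factor (Foxj2), after their values had been seen. GGAC, the commonest core of the m6A consensus, and its reverse complement GTCC are in capitals.
Musk, chr4:58285830-58285991 (plus strand): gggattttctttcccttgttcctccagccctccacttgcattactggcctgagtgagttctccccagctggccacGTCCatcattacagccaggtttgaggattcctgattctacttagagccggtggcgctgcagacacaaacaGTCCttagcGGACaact
Hmga2, chr10:120476440-120476663 (minus strand): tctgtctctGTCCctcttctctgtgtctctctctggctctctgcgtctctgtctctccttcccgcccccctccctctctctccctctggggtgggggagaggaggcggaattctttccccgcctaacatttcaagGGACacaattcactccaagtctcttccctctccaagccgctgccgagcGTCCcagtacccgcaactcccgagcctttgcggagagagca
Lats2, chr14:57734389-57734587 (minus strand): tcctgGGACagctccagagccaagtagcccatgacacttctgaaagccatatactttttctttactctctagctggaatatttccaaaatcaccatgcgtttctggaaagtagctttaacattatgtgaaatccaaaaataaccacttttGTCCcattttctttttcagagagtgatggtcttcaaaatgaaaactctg
Foxj2, chr6:122819973-122820172 (plus strand): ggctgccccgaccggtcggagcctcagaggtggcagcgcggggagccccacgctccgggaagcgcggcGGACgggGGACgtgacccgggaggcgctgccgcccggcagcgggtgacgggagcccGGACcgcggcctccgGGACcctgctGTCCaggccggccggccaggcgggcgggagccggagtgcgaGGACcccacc
Of 32851 such windows in the reference 87.7% held GGAC on either strand, and of the 1790 windows of Igf2bp3-only genes 91.4% did. A match is a description of the letters only.

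The Igf2bp3-only peaks were fewer per gene, and lower, than those of shared genes. The median was 2 peaks per gene against 4 in shared genes, the most was 20 against 72, and 838 of the 1789 genes (46.8%) had a single peak against 20.2% of shared genes. The median peak was 290.5 bases wide against 268, and held 18.8 CPM against 24.9 CPM as a mean of the 4 libraries, or 57.2 against 78.1 CPM per kilobase of peak. Of the genes with 1 peak, 60.3% had no Lin28a-RIP row, of those with 2 peaks 45.0%, with 3 to 4 peaks 40.1%, with 5 to 9 peaks 20.6% and with 10 or more 4.39% (20 of 456 genes). The share also fell from 51.5% to 32.7% from the lowest to the highest of 4 equal classes of genes ordered by count per kilobase. Most of the Igf2bp3-only genes, 1640 (91.7%), were protein coding, and 66 were long noncoding RNAs.

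**Figure D1:**
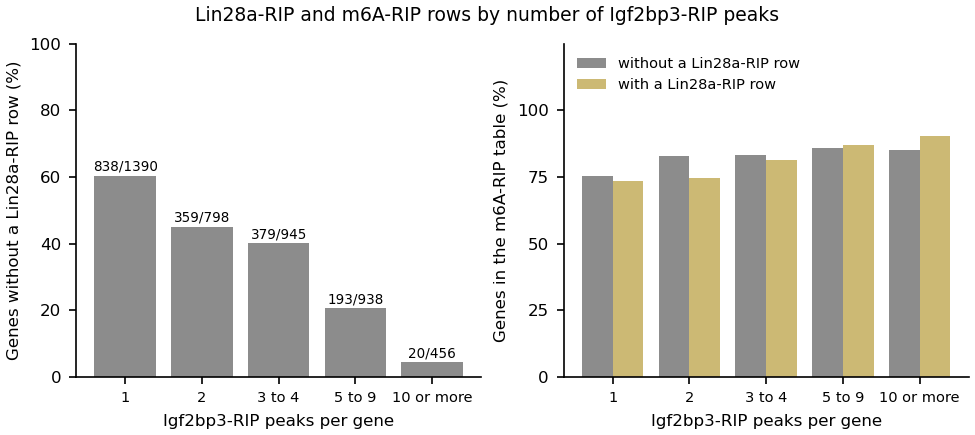
Left, the percentage of genes without a Lin28a-RIP row by the number of Igf2bp3-RIP peaks per gene, with the counts above each bar. Right, the percentage of genes listed in the m6A-RIP table for genes without (grey) and with (yellow) a Lin28a-RIP row. The left bars fall from 60.3% at 1 peak to 4.39% at 10 or more, while the right bars of both sets lie between 73.6% and 90.4%.

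Along the gene, the Igf2bp3-only peaks lay towards the 3′ end. Of the 3088 peaks inside the labelled RefSeq gene, only the 2461 in genes whose strand was available here could be placed along it. Their median position was 0.834 of the gene's length from its start, against 0.732 for 10111 of 12605 peaks of shared genes. The last 10% of the gene's length held 38.7% of them against 26.3%. The rule itself left few Igf2bp3-only peaks near a Lin28a-RIP peak, and the 17 (0.399%) that overlapped one by at least 1 base met a peak listed under another gene.

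A peak carried the name of a nearby gene, which was not always the gene it lay in. Of the 4260 peaks, 3088 (72.5%) lay inside their RefSeq gene (GRCm38.p6), against 82.9% of the peaks of shared genes. Of the other 1172, 1087 lay in another gene and 85 in none. All peaks lay outside the named gene for 506 of the 1789 genes (28.3%). Where a peak lay in another gene, 148 peaks lay in one that did have a Lin28a-RIP row. Igf2bp3-only is thus a statement about the gene that names a peak, and for genes described below whose peaks all lay in another gene that other gene is named as well.

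The Igf2bp3-only peaks with the strongest signal differed far more between replicates than between groups. The 6 Igf2bp3-only peaks with the highest count per kilobase were named for Itga9, Lrch3, Slc25a33, Kpna1, Arhgef26 and Myod1. Those of Slc25a33 and Arhgef26 lay in no RefSeq gene and that of Kpna1 in Gm15564. The Itga9 peak (chr9:118674788-118675167), named for an integrin subunit, held 13741 and 120.1 CPM in control replicates 1 and 2 and 3602 and 60.1 CPM in Lin28a+ replicates 1 and 2. The peaks of Lrch3, Slc25a33, Kpna1 and Arhgef26 showed the same split, and all 5 were lower in Lin28a+ than in control within each replicate number, though none passed the test. The 5 together made up 3.36% of the counts of control replicate 1 and 0.0336% of those of control replicate 2, and 1.27% and 0.0153% in Lin28a+. Over 5 times apart between replicate 1 and 2 in both groups were 10 Igf2bp3-only peaks and 2 others. The Myod1 peak (chr7:46378619-46378879), in the gene of the myogenic master factor, did not split in this way and held 818 and 656 CPM in control MuSCs and 631 and 314 CPM in Lin28a+ libraries, with a log2 difference of -0.66 ± 0.41 (SE; edgeR, adjusted p = 1).

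**Figure D2:**
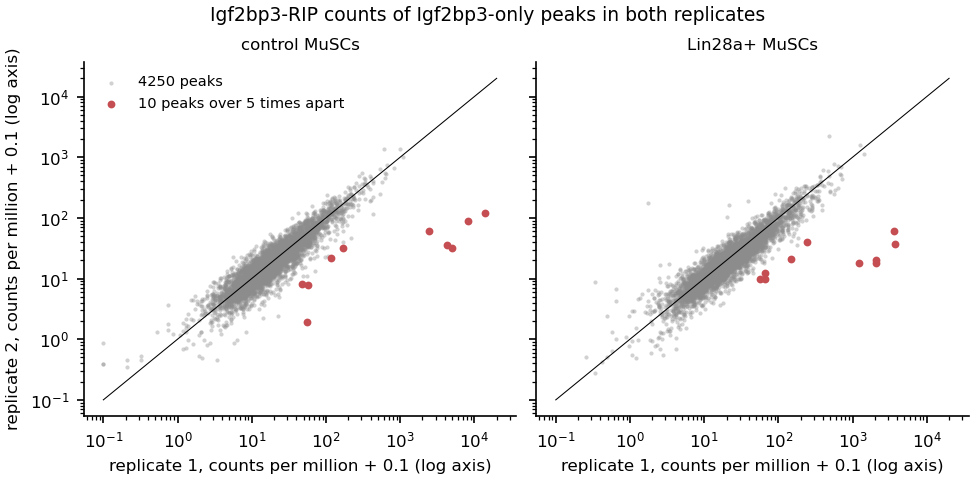
Igf2bp3-RIP CPM (plus 0.1, log axes) of each Igf2bp3-only peak in replicate 1 (x axis) and replicate 2 (y axis), in control (left) and Lin28a+ MuSCs (right), with the line of equal values. The 10 red peaks, over 5 times apart in both groups, lie far below the line, and 5 of them are the highest values on the x axis in control.

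The Igf2bp3-only peaks took 17.4% and 14.1% of the Igf2bp3-RIP counts in control replicates 1 and 2 and 17.2% and 14.9% in Lin28a+ replicates 1 and 2. The mean difference of 0.276 percentage points was smaller than the spread between replicates (exact permutation test, two-sided, p = 1.0, where 2 against 2 libraries cannot go below 0.333), and it changed sign without control replicate 2 (-1.33) or without Lin28a+ replicate 1 (-0.878). Without the peaks over 5 times apart the shares were 14.4% and 14.1% in control and 16.1% and 14.8% in Lin28a+, 1.18 percentage points higher (exact permutation test, p = 0.333). This alternative was chosen after the data had been seen. With membership taken by transcript in place of gene the shares were 25.2% and 23.3% in control and 30.4% and 25.4% in Lin28a+, a difference of 3.66 percentage points (exact permutation test, p = 0.333).

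In the comparison of Lin28a+ with control, few single peaks passed the test in Igf2bp3-RIP, and both their number and their balance of higher and lower depended on the fit. At an adjusted p under 0.05, 18 of the 4260 peaks passed the test (0.423%, 6 higher and 12 lower in Lin28a+), against a background of 0.123% over all 19465 peaks, or 0.0616% in each direction. They carried the names of 5 genes and had adjusted p-values from 0.0424 to 0.0469. The Lin28a-RIP libraries came from Lin28a+ cells alone, so a gene nearly absent from those cells could have no row there, and lower counts in Lin28a+ and the choice of members are not independent, in Igf2bp3-RIP as in RNA. The median log2 difference was 0.117 over the Igf2bp3-only peaks and -0.013 over all peaks. The calls sat near the threshold: with at least 10 counts required in every library, which removes peaks nearly absent from one group, edgeR called none (373 of the peaks then tested had an unadjusted p under 0.05, and the smallest adjusted p was 0.0746), while DESeq2 called 147. With the replicate number as a block, 688 passed and the balance turned, with 383 higher and 305 lower in Lin28a+. No label says that a replicate number marks a batch. With 1 library left out 71 to 112 peaks passed.

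The peaks that fell lay in Gria3, Col1a2 and Stag2. Gria3 encodes a subunit of AMPA-type glutamate receptors, and all 6 of its peaks passed. Its peak at chrX:41610421-41611363 held 15.5 and 13.7 CPM in control MuSCs and 0.555 and 0.908 CPM in Lin28a+ libraries (log2 difference -4.26 ± 0.38 SE). Col1a2 encodes a chain of type I collagen, and all 3 of its peaks passed, in the 3′ part of the gene. Its peak at chr6:4540383-4540850 held 33.4 and 41.6 CPM in control MuSCs and 1.74 and 0.879 CPM in Lin28a+ libraries (-4.95 ± 0.44). Stag2 encodes a subunit of cohesin, the ring that holds sister chromatids together. All 17 of its peaks were lower in Lin28a+, by -3.52 to -2.63 on the log2 scale, and 3 of them passed.

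The peaks that rose carried the names Tfpi and Mir6346. Tfpi encodes an inhibitor of the tissue factor pathway of blood clotting. Its 5 peaks were all higher in Lin28a+ and 2 passed, and the peak at chr2:84442427-84443077 held 1.19 and 1.20 CPM in control MuSCs and 19.6 and 26.4 CPM in Lin28a+ libraries (4.23 ± 0.36). The 6 peaks named for Mir6346 were all higher and 4 passed. The one at chr1:118835993-118836322 held 1.19 and 0.616 CPM in control MuSCs and 18.9 and 19.6 CPM in Lin28a+ libraries (4.51 ± 0.42), and all 6 lay inside Gli2, which encodes a transcription factor of the Hedgehog pathway. In none of these peaks did the groups overlap.

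With the peaks of a gene summed, 10 of the 1789 genes passed (3 higher, 7 lower), against a background of 0.287% over all 4527 genes (0.133% higher, 0.155% lower). The 3 higher were Mir6346, Tfpi and Pmp22, which encodes a myelin and growth arrest protein, and the 7 lower were Col1a2, Gria3, Stag2, Pclo, Gm6093, Tcerg1l and Pold2. Stag2 fell from 448 and 368 CPM in control to 67.4 and 36.2 CPM in Lin28a+ libraries (log2 -3.03 ± 0.32, adjusted p = 0.0404). Pclo, a scaffold of the presynaptic zone, fell from 24.6 and 15.1 to 2.54 and 1.90 CPM (-3.20 ± 0.36, adjusted p = 0.0456). Pmp22 rose from 3.15 and 3.48 to 51.3 and 27.8 CPM (3.50 ± 0.38, adjusted p = 0.0409). With library totals as the only scaling 4 genes were called, 2 in each direction, DESeq2 called 65, and with 1 library left out 24 to 46 passed, so the balance of 3 higher to 7 lower depended on the fit as well.

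**Figure D3:**
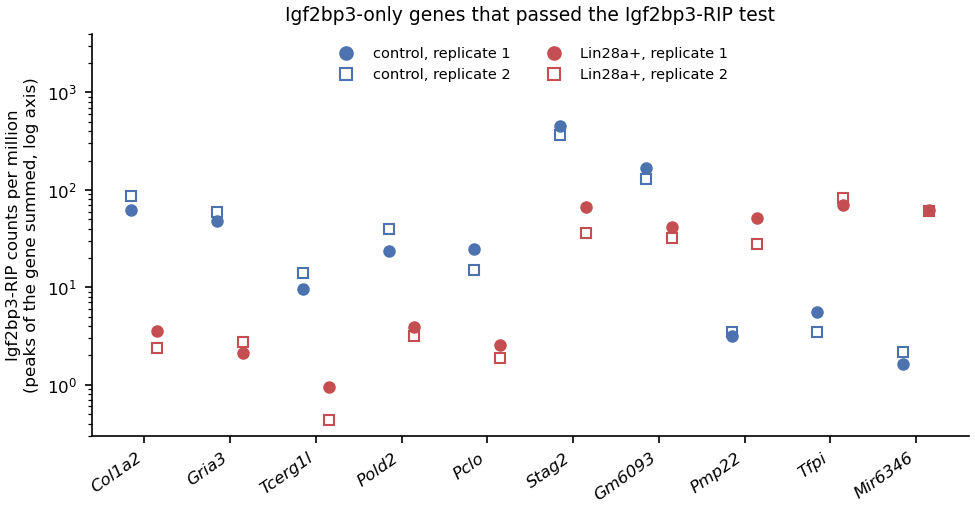
Igf2bp3-RIP CPM, summed over the peaks of each gene (log axis), for the 10 Igf2bp3-only genes that passed the test, in control (blue) and Lin28a+ (red) libraries, with filled circles for replicate 1 and open squares for replicate 2. The groups do not overlap in any of the 10 genes, and the 7 on the left are lower and the 3 on the right higher in Lin28a+ MuSCs.

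Of these 10 genes, 7 had peaks inside the gene and RNA tested, and in each of them the input RNA moved the same way as the Igf2bp3-RIP counts. Gria3 RNA was 8.76 and 9.51 CPM in control MuSCs and 0.220 and 0.0688 CPM in Lin28a+ libraries (log2 -6.23 ± 0.39, adjusted p = 7.46e-05). Col1a2 RNA fell from 41.1 and 42.6 to 1.95 and 1.26 CPM, and Stag2 RNA from 19.4 and 19.1 to 1.68 and 2.12 CPM. Fibro-adipogenic cells express collagen genes too. Their summed markers were also lower in Lin28a+ input (144 and 153 against 77.7 and 77.8 CPM) through Gsn, while Ly6a was higher and Pdgfra near 0 in every library, and their part in the Col1a2 result was not tested. Tfpi RNA rose from 0.787 and 0.998 to 9.51 and 10.2 CPM, and Pmp22 RNA from 4.02 and 4.21 to 32.9 and 30.1 CPM. In bulk RNA, fewer cells that express a gene and less RNA per cell cannot be told apart. In Lin28a+ cells the RNA of Gria3, Col1a2 and Stag2 was at most 2.12 CPM.

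Pold2, which encodes a subunit of DNA polymerase delta, was the gene whose RNA and Igf2bp3-RIP counts went opposite ways. Its RNA rose from 34.0 and 32.2 to 84.9 and 79.8 CPM (log2 1.29 ± 0.06) while its only peak fell from 23.9 and 39.4 to 3.88 and 3.16 CPM (-3.23 ± 0.38). That peak lay in the neighbouring gene Aebp1, whose RNA fell from 194 and 199 to 16.4 and 17.9 CPM (-3.54 ± 0.04). For the Mir6346 peaks the gene they lay in, Gli2, rose in RNA from 0.285 and 0.500 to 15.8 and 15.2 CPM (5.08 ± 0.15). The 9 peaks named Col14a1, a collagen gene whose RNA was not tested, lay in Deptor, an inhibitor of mTOR, and summed to 449 and 615 CPM in control MuSCs and 152 and 160 CPM in Lin28a+ libraries (log2 -1.82, adjusted p = 0.0748). Deptor RNA fell from 130 and 139 to 18.7 and 18.5 CPM (-2.89 ± 0.05).

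Across the set, the gene a peak lay in and the gene that named it gave different pictures. For the 1144 Igf2bp3-only genes with every peak inside the gene and RNA tested, the log2 differences in Igf2bp3-RIP and in RNA had a Pearson r of 0.698 (Spearman rho 0.417) across genes. For the 242 genes with every peak outside, r was -0.04 (rho 0.02). In 259 pairs of a named gene and the single other protein-coding gene its peaks lay in, r was -0.025 with the RNA of the named gene (rho 0.014) and 0.543 with that of the gene the peak lay in (rho 0.371), or 0.464 in 258 pairs without Pold2. Genes are not independent replicates, and all of these values came from the same 8 libraries, so the correlations are descriptions.

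**Figure D4:**
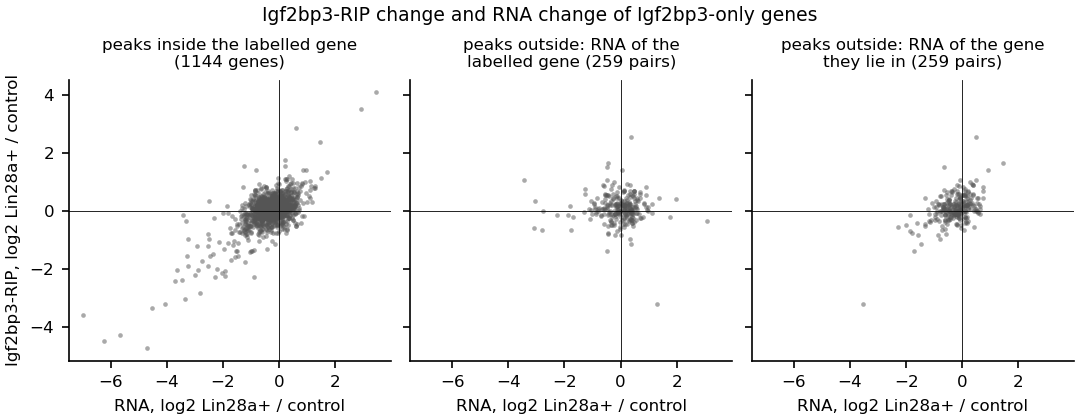
Log2 difference (Lin28a+ over control) in Igf2bp3-RIP (y axis) against that in input RNA (x axis), with 1 point per gene or pair. Left, 1144 genes with all peaks inside the gene that names them; middle, 259 pairs in which the peaks lie in another gene, against the RNA of the naming gene; right, the same pairs against the RNA of the gene the peaks lie in. The points follow a rising line on the left and right (r 0.698 and 0.543) and none in the middle (r -0.025).

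In input RNA, Igf2bp3-only genes were more often lower than higher in Lin28a+ MuSCs. The input listed 1548 of the 1789 genes, and 1447 rows, for 1446 genes, passed the filter on low counts. Of these 844 passed the test (238 higher, 16.4%, and 606 lower, 41.9%), against a background of 56.8% over all 11317 genes tested (28.1% higher, 28.7% lower). Shared genes leaned the same way, with 15.4% higher and 48.8% lower. The median log2 difference was -0.208 in Igf2bp3-only genes, -0.276 in shared genes and 0.01 over all genes. Past a 2-fold difference were 147 lower (10.2%) and 21 higher genes (1.45%), against 8.73% lower and 4.51% higher over all genes tested and 9.16% and 1.43% of shared genes. Among the 147, the Igf2bp3-RIP difference had a median of -0.52 and was negative in 122 genes, and among the 21 it had a median of 0.725 and was positive in 17. DESeq2 called 394 genes (113 higher, 281 lower). Of genes with all peaks inside them 153 were higher and 524 lower (45.8%), with a median of -0.262. Genes with all peaks outside them leaned the other way, with 80 higher and 53 lower (21.9%) and a median of 0.115.

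The RNAs that fell with the smallest p-values were those of Ccnd1, Errfi1, Syt13, Dusp4 and Cdh11. Ccnd1, cyclin D1 of the G1 phase, fell from 575 and 584 to 77.3 and 76.7 CPM (log2 -2.94 ± 0.03, edgeR adjusted p = 1.26e-06). Errfi1, a feedback inhibitor of EGF receptor signalling, fell from 280 and 288 to 82.3 and 82.4 CPM, and Dusp4, a phosphatase of MAP kinases, from 394 and 411 to 112 and 117 CPM. Syt13, of the synaptotagmin family, fell from 446 and 457 to 116 and 110 CPM. The Igf2bp3-RIP counts of these 4 genes were not called. Cdh11, a cadherin of mesenchymal cells, fell from 54.6 and 56.9 to 2.37 and 2.48 CPM, and its 7 peaks were all lower in Lin28a+, by -4.06 to -2.62, without a call.

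The RNAs that rose with the smallest p-values were those of E2f8, Traf4, Psat1, Pmp22 and Ccna2. E2f8, an E2F factor of the cell cycle, rose from 37.2 and 38.7 to 110 CPM in both Lin28a+ libraries (1.51 ± 0.04, adjusted p = 6.76e-06), and its Igf2bp3-RIP count was 217 and 211 CPM in control MuSCs and 490 and 477 CPM in Lin28a+ libraries (adjusted p = 0.124). Ccna2, cyclin A2, rose from 64.8 and 64.4 to 129 and 130 CPM, and Psat1, an enzyme of serine synthesis, from 105 and 111 to 236 and 245 CPM. Traf4, an adaptor of the TNF receptor family, rose from 256 and 264 to 499 and 510 CPM, but its only peak lay in Fam222b. The groups did not overlap in RNA for any of these genes.

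The genes with the most peaks were Kmt2e (20), Stag2 and R3hdm1 (17 each), Impact (16) and Itsn2 (15). Kmt2e, a SET-domain chromatin protein, had 767 and 814 CPM in control MuSCs and 1025 and 894 CPM in Lin28a+ Igf2bp3-RIP libraries (log2 0.24, adjusted p = 0.871), while its RNA fell from 16.5 and 17.8 to 9.30 and 9.73 CPM (-0.88 ± 0.08). R3hdm1 and Itsn2, a scaffold of endocytosis, likewise had RNA differences of -0.69 and -0.79 that passed the test and Igf2bp3-RIP differences of 0.37 and 0.22 that did not. Whether the 2 differences of a gene differ was not tested. Impact, a regulator of translation under stress, was lower in all 16 peaks (-1.95 to -0.66) with no call, and its RNA fell by 1.53 on the log2 scale.

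Most Igf2bp3-only genes were also listed in m6A-RIP. Of the 1789 genes, 1426 (79.7%, 95% Wilson interval 77.8 to 81.5) had at least 1 row in that table, against 81.7% of shared genes. The interval treats genes as independent and covers counting error only. The m6A-RIP table gives no positions, so a row says that the gene's name is listed and not that the Igf2bp3-RIP peak holds the mark. The 363 genes not listed had lower peaks, with a median of 39.3 against 60.9 CPM per kilobase, and 57% of them had a single peak against 44.2% of those listed.

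In m6A-RIP counts, 985 of the 1426 genes passed the test (311 higher, 674 lower), against a background of 66.3% over all 9416 genes (32.5% higher, 33.8% lower). The median log2 difference was -0.181. With library totals in place of TMM the calls split 219 to 793, so that 21.6% in place of 31.6% of calls were higher, and the median of all genes moved to -0.095. The m6A-RIP and RNA differences ran together, with r = 0.834 (rho 0.798) over 1207 genes across genes, 155 called higher (12.8%) and 421 called lower (34.9%) in both, and 18 higher in RNA but lower in m6A-RIP (1.49%) and 16 the reverse (1.33%). Over all 7520 genes tested in both, these shares were 23.5%, 25.7%, 1.13% and 0.838%, and over the 1960 shared genes 10.7%, 44.8%, 1.63% and 0.306%. An m6A-RIP count holds both the abundance of the RNA and its methylation, and these were not separated here.

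The m6A-RIP counts that fell with the smallest p-values were those of Tceal7, Gm6093, Ccnd1, Pold2 and Brinp3. Tceal7 fell from 168 and 172 to 8.93 and 8.50 CPM (log2 -4.19 ± 0.06, edgeR adjusted p = 1.01e-13) while its RNA fell by 1.72. Ccnd1 fell from 433 and 421 to 62.7 and 58.2 CPM, and Brinp3, a neural protein of the BRINP family, from 392 and 400 to 95.2 and 88.8 CPM. Gm6093, a predicted gene, fell from 198 and 200 to 28.7 and 28.8 CPM, and its Igf2bp3-RIP count passed as lower too. The counts listed under Pold2, whose RNA rose, fell in m6A-RIP from 254 and 242 to 20.7 and 17.2 CPM (-3.62 ± 0.07). Aebp1, the gene that held the Igf2bp3-RIP peak named for Pold2, fell in RNA. The m6A-RIP rows carry no position, so whether those counts came from Pold2 or Aebp1 was not tested. Over 228 pairs of a naming gene and the gene its Igf2bp3-RIP peaks lay in, the m6A-RIP difference had r = 0.504 with the RNA of the naming gene and 0.37 with that of the other, across genes.

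The m6A-RIP counts that rose with the smallest p-values carried the names Mir6346, BC034090, 9530052E02Rik, Ttyh3 and E2f8. Mir6346 rose from 1.98 and 2.15 to 85.1 and 83.6 CPM (5.46 ± 0.10). 9530052E02Rik rose from 83.4 and 84.8 to 181 and 182 CPM, and its 2 Igf2bp3-RIP peaks lay in Irs2, an insulin receptor substrate, whose RNA rose from 64.2 and 75.4 to 158 and 147 CPM. E2f8 rose from 61.0 and 57.4 to 137 and 144 CPM, and Ttyh3, of the tweety family of membrane proteins, from 77.2 and 76.4 to 165 and 173 CPM. BC034090 rose from 7.32 and 5.81 to 57.4 and 54.1 CPM, with its own RNA up from 2.09 and 2.57 to 20.1 and 19.6 CPM, while its 2 Igf2bp3-RIP peaks lay in Xpr1, a phosphate exporter whose RNA fell by 1.19.

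By function, transcription factors were the group with the largest share of Igf2bp3-only genes among the gene lists described here. Of 134 genes on the transcription factor list with an Igf2bp3-RIP peak, 83 (61.9%) had no Lin28a-RIP row, against 39.5% of all genes, and of 114 zinc finger Zfp genes 61 (53.5%). The transcription factor list was not limited to proteins that bind a specific sequence themselves, and included Eya1, Eya4, Cbfb and Hmga2. The share among transcription factors was above that of other genes at the same number of peaks, 83.8% against 59.6% at 1 peak, 59.1% against 44.6% at 2, 60.0% against 39.3% at 3 to 4 and 45.0% against 14.4% at 5 or more. At the other end stood the extracellular matrix with 8 of 44 genes (18.2%), splicing and mRNA processing with 22 of 114 (19.3%), DNA repair and replication with 16 of 77 (20.8%) and chromatin modifiers with 29 of 127 (22.8%). These low shares were not set beside other genes with the same number of peaks. A gene can be in more than 1 list, and 435 of the 1789 genes were in any. The lists were written from general knowledge and the shares are descriptions.

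**Figure D5:**
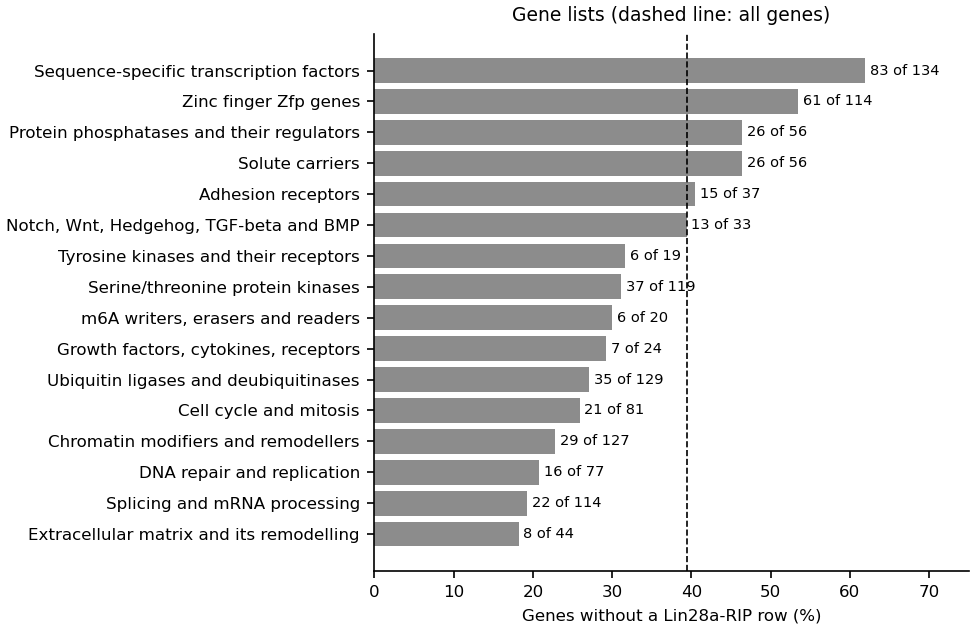
Percentage of the genes of each list with an Igf2bp3-RIP peak that had no Lin28a-RIP row, with the counts beside each bar, for 16 of the lists with at least 19 such genes. The dashed line is the 39.5% of all genes, and transcription factors (61.9%) and Zfp genes (53.5%) reach furthest beyond it.

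Among the 82 Igf2bp3-only transcription factors with RNA tested, 9 were higher and 45 lower in Lin28a+ MuSCs (median log2 difference -0.534), read against the 28.1% and 28.7% of all genes. In Igf2bp3-RIP edgeR called none of the 83 (14 had an unadjusted p under 0.05, and DESeq2 called 4), and the median was 0.015. Of 75 listed in m6A-RIP, 15 were higher and 46 lower (61.3%), against 32.5% and 33.8% of all genes. Of Igf2bp3-only genes 21.8% were higher and 47.3% lower in m6A-RIP, and of shared genes 15.1% and 58.7%. The 3 with the highest Igf2bp3-RIP counts were Six5, Myod1 and Nfic. Myod1 RNA was 4542 and 4708 CPM in control MuSCs and 4752 and 4775 CPM in Lin28a+ libraries, a difference that did not pass (log2 0.01 ± 0.02, adjusted p = 0.605). Nfic, a nuclear factor I protein, fell by 0.18 in RNA, and the Six5 peak lay in the neighbouring gene Dmpk, the kinase gene of myotonic dystrophy.

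Of the muscle regulators among the Igf2bp3-only genes, Myf5, which marks the myogenic lineage, had RNA at 441 and 464 CPM in control MuSCs and 198 and 202 CPM in Lin28a+ libraries (-1.21 ± 0.03, adjusted p = 6.56e-06), and its Igf2bp3-RIP count was 371 and 319 CPM in control MuSCs and 243 and 160 CPM in Lin28a+ (adjusted p = 0.395). Chrna1, the alpha subunit of the muscle acetylcholine receptor, fell from 5793 and 5985 to 3137 and 3196 CPM in RNA, with 1440 and 1174 CPM in control MuSCs and 1144 and 697 CPM in Lin28a+ Igf2bp3-RIP libraries (adjusted p = 0.714). Hmga2, a chromatin factor of growing cells, fell in RNA from 139 and 135 to 22.1 and 28.0 CPM, while its Igf2bp3-RIP count was 97.6 and 198 CPM in control MuSCs and 69.3 and 311 CPM in Lin28a+, with wide overlap. Vcam1, an adhesion receptor of quiescent MuSCs, fell in RNA from 16.4 and 18.3 to 4.00 and 5.28 CPM. These 4 genes were picked after their values were seen.

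The Krüppel-like factors, ETV factors and dual-specificity phosphatases with an Igf2bp3-RIP peak were all without a Lin28a-RIP row. This was seen in the data and then counted. The Krüppel-like factors with an Igf2bp3-RIP peak numbered 10, all of them Igf2bp3-only, and 9 fell in RNA (28.7% of all genes tested and 41.9% of Igf2bp3-only genes fell). Klf5 fell from 59.0 and 59.4 to 14.2 and 16.2 CPM and Klf2 from 5.85 and 7.72 to 1.19 and 0.413 CPM, though the only peak of Klf2 lay in Eps15l1, whereas Klf12 did not pass (log2 -0.36, adjusted p = 0.364). All 4 ETV factors, which respond to growth factor signalling, fell, with Etv5 from 14.7 and 17.0 to 1.90 and 1.28 CPM, but the only peak named for Etv4 lay in Dhx8, which had a Lin28a-RIP row. Of 7 dual-specificity phosphatases, most of which switch off MAP kinases, Dusp4, Dusp6, Dusp11 and Dusp18 fell in RNA, Dusp18 from 61.3 and 67.9 to 21.5 and 25.1 CPM. In Igf2bp3-RIP neither edgeR nor DESeq2 called any of these 21 genes, of which 4 had an unadjusted p under 0.05 in edgeR.

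The counts of called RNAs in the following lists are read against the 28.1% higher and 28.7% lower of all genes tested, and the 16.4% and 41.9% of Igf2bp3-only genes. Of 119 serine/threonine kinases 37 were Igf2bp3-only (31.1%), and of 35 with RNA tested 5 rose and 16 fell. Lats2, a kinase of the Hippo pathway, fell from 19.9 and 18.8 to 13.8 and 12.8 CPM, and Nek9, a mitotic kinase, fell by 0.11 on the log2 scale, though its 4 peaks lay in Tmed10. Of 19 tyrosine kinases 6 were Igf2bp3-only, of which 4 fell. Musk fell from 59.9 and 58.4 to 25.6 and 29.0 CPM and its 8 peaks were all lower (-0.89 to -0.55) without a call, and Fyn, a Src family kinase, fell from 60.6 in both libraries to 21.8 and 21.9 CPM. Axl, a receptor kinase for Gas6, was 116 and 121 CPM in control MuSCs and 127 and 126 CPM in Lin28a+ (adjusted p = 0.355). Of 56 phosphatases and their regulators 26 were Igf2bp3-only (4 rose and 11 fell in RNA), among them Ppp2r5d, a regulatory subunit of PP2A, which rose from 122 and 126 to 186 and 187 CPM.

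Among Notch, Wnt, Hedgehog, TGF-beta and BMP genes 13 of 33 were Igf2bp3-only, and of 12 with RNA tested 1 rose and 8 fell (28.1% and 28.7% of all genes). Twsg1, a modulator of BMP, fell from 63.7 and 65.3 to 39.7 and 41.7 CPM and Maml3, a coactivator of Notch, from 27.0 and 28.6 to 17.2 and 17.1 CPM. Kremen1, a receptor for Dickkopf, did not pass (log2 -0.07, adjusted p = 0.085). Growth factors, cytokines and their receptors gave 7 of 24, with 3 lower of 4 tested, with Angptl2, a secreted angiopoietin-like protein, falling from 249.1 and 252.3 to 185 and 193 CPM. The 2 peaks named Egf lay in Elovl6, an enzyme of fatty acid elongation.

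Among adhesion receptors 15 of 37 were Igf2bp3-only (2 rose, 7 fell of 13), with Cd47, the ligand of SIRP alpha, at -0.62 and Cdh13, a cadherin without a transmembrane part, at -0.32 in RNA. Solute carriers gave 26 of 56 (3 rose, 10 fell of 21), and Slc30a4, a zinc transporter, fell from 126 and 132 to 75.7 and 75.2 CPM. Of the 61 Zfp genes 51 had RNA tested, and 5 rose and 25 fell. Zfp275 fell from 85.1 and 86.8 to 62.3 and 61.9 CPM. The peroxisomal carrier Slc25a17 did not pass in RNA (adjusted p = 0.412), and 4 of its 5 peaks lay in St13 and none in Slc25a17.

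Cell cycle, DNA repair, splicing and chromatin genes were mostly shared. These lists had a median of 4 Igf2bp3-RIP peaks per gene, or 5 for chromatin genes, against 3 over all genes. Genes with more peaks were less often Igf2bp3-only, and these lists were not compared at equal peak number. Of 81 cell cycle genes 21 were Igf2bp3-only (25.9%), and in RNA 8 rose and 7 fell of 20 (28.1% and 28.7% of all genes). Ccng1, cyclin G1 of the p53 response, had the highest Igf2bp3-RIP count among them, 1608 and 1732 CPM in control MuSCs and 2095 and 1865 CPM in Lin28a+ (adjusted p = 0.902), and fell in RNA from 830 and 841 to 427 and 431 CPM. Cdca7, a Myc target of S phase, rose in RNA from 10.6 and 9.32 to 21.8 and 22.4 CPM, but its 3 peaks lay in Map3k20. Of 16 Igf2bp3-only DNA repair and replication genes 3 rose and 0 fell in edgeR, none of the 16 was lower at an unadjusted p under 0.05, and DESeq2 called 2 higher and 0 lower. Eme1, a nuclease subunit, rose from 4.09 and 3.96 to 10.3 and 10.9 CPM with its peak in Lrrc59. Of 22 splicing and mRNA processing genes 6 rose and 5 fell of 21, with Papola, a poly(A) polymerase, at -0.36 and Hnrnpul1, an hnRNP, at 0.27. Among 29 chromatin genes 5 rose and 8 fell of 28. Brd2, a bromodomain protein, did not pass (adjusted p = 0.214).

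Of 129 ubiquitin ligases and deubiquitinases 35 were Igf2bp3-only (7 rose, 15 fell of 33), with Traf7 at 0.50 in RNA. Of 20 m6A writers, erasers and readers 6 were Igf2bp3-only, Mettl14, Wtap, Cbll1, Ythdf1, Igf2bp2 and Elavl1. Igf2bp2, the paralog of Igf2bp3, had 7 peaks with 364 and 436 CPM in control MuSCs and 436 and 527 CPM in Lin28a+ (adjusted p = 0.876), and fell in RNA from 27.1 and 29.5 to 23.2 and 23.8 CPM (adjusted p = 0.0247). The writer subunit Mettl14 fell in RNA by 0.42 (adjusted p = 0.0394), but its only peak lay in Sec24d, which had a Lin28a-RIP row. Elavl1, which binds AU-rich elements, rose by 0.36, and Wtap, Cbll1 and Ythdf1 did not pass.

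The extracellular matrix list gave 8 Igf2bp3-only genes, and 1 rose and 4 fell of 7 with RNA tested, Col1a2 among those that fell. The Wnt-induced matricellular gene Ccn4 had RNA at 36.2 and 35.9 CPM in control MuSCs and 31.5 and 32.1 CPM in Lin28a+ (adjusted p = 0.0796). Small groups were 3 cytosolic ribosomal protein genes of 6, 2 respiratory chain genes of 8 and 1 proteasome gene of 4. Ndufb9 and Ndufb2, subunits of complex I, rose in RNA by 0.50 and 0.43, Psmb2 by 0.51, and of the ribosomal genes Rpl15 rose by 0.42 while Rpl22l1 did not pass. Ribosomal protein genes have near-identical processed pseudogenes, and how the counting shared such reads is not given in the sources used here, so these values are uncertain. All 8 peaks named for Ndufb2 lay in the kinase gene Braf, those of Ndufb9 in Mtss1, which had a Lin28a-RIP row, and where Rnf139 and Tatdn1 overlap, and those of Rpl22l1 in Eif5a2 and Gm32950, which overlap.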

How the data were processed

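The authors deposited counts per peak for Igf2bp3-RIP, Lin28a-RIP and m6A-RIP, and estimated counts per gene for input, which are not all whole numbers and were rounded here. Per the labels and the study's methods, RNA was extracted from cultured MuSCs, for m6A-RIP it was enriched for mRNA, fragmented and precipitated with an m6A antibody, and libraries were made with a Vazyme kit and sequenced on an Illumina HiSeq X10, and the submitters' processing notes and methods name FastQC, HISAT2 2.0.4, MACS2 1.4.3, Homer annotation and DESeq2 1.42.0. The notes list the builds GRCh38 and mm10. The coordinates were read as mm10 (GRCm38), since 80.6% of all Igf2bp3-RIP peaks lay inside the RefSeq gene that names them. The counting program, the peak threshold, the use of strand and whether libraries were pooled for peak calling are not given in the sources used here, so reads of overlapping or antisense genes cannot be told apart. No value of Lin28a itself is given (not analysed here).

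Igf2bp3-only peaks were those whose gene identifier had no row in the Lin28a-RIP table. Lin28a+ was compared with control in each table over all its peaks or genes with edgeR 4.0.16 (TMM scaling, filterByExpr, quasi-likelihood test, Benjamini-Hochberg adjustment over all features tested, threshold 0.05) in R 4.3.3. Every Igf2bp3-RIP peak passed the filter. Fold changes are log2 values with standard errors. m6A-RIP rows were summed per gene. The Lin28a+ columns of the input carried the names of m6A-RIP libraries, La_m6A_rep1 and La_m6A_rep2. They were taken as Lin28a+ input because the labels of those input libraries point to these counts, and every RNA difference rests on that reading. Both Lin28a+ columns of m6A-RIP carried the same name, La_m6A_rep1. No replicate number was therefore taken for either. The scripts were tested on simulated data with known changes. Alternatives were DESeq2, other scalings, filters of at least 10 counts in every library or none, each library left out, a replicate block and membership by transcript. Named genes were the 5 smallest p-values in each direction whose groups did not overlap, the 5 genes with the most peaks, the 6 highest peaks, and the 3 highest Igf2bp3-RIP counts of each list, and others are said to have been picked afterwards. The rule, the members and the gene lists were chosen with earlier results of these data known. Some items are not reported here.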

Additional observations from a re-analysis of the deposited data

Results flagged for a closer look

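Among the peaks of genes without a Lin28a-RIP row, 17 overlapped a Lin28a-RIP peak listed under another gene, which is signal in a table that the comparisons above do not use. The peak named Klrg2 (chr6:38603127-38604999) held 1749 and 3955 Igf2bp3-RIP counts in control and 2299 and 5132 in Lin28a+ libraries, and the Lin28a-RIP peak it overlapped was listed under Luc7l2, a gene of a splicing factor. Other such pairs were Polg2 and Mir3064, Arl6ip1 and Smg1, and Tubgcp4 and Trp53bp1. No group was tested for an outlying library, since all groups held 2 libraries.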

How the results depend on the processing

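Of the Igf2bp3-only peaks 18 passed the test in edgeR, and 147 did with DESeq2, 0 with at least 10 counts in every library, 71 to 112 with 1 library left out, where the lone library is assumed to vary like the other group, and 688 (383 higher, 305 lower) with the replicate number as a block, which kept all 18. Summed by gene, 10 passed, and 65 did with DESeq2, 4 with library totals as scaling, 24 to 46 with 1 library left out and 187 (96 higher, 91 lower) with the block. In the block, libraries of the same number deviated together (r = 0.703 over all peaks, 0.65 over the Igf2bp3-only peaks), but with 2 pairs and no label that names a batch the numbers were not taken as pairs, and the peaks over 5 times apart split by these numbers. Of the RNAs 844 passed, 394 with DESeq2 and 701 to 756 with 1 library left out. In m6A-RIP 985 genes passed, and 898 to 930 with 1 library left out. No paired analysis was made for RNA and m6A-RIP, because the names of their Lin28a+ columns do not settle the replicate. Those of the input name m6A-RIP libraries, and those of m6A-RIP repeat the same name. Presence in the m6A-RIP table was 79.7%, 84.1% with peaks of at least 100 counts in every library and 81.5% with genes that hold at least 1 of their peaks, an alternative chosen after seeing the data. The difference in the share of counts was 0.276 percentage points, -1.33 to 1.89 with 1 library left out (-1.33 without control replicate 2, -0.878 without Lin28a+ replicate 1) and 3.66 with membership by transcript. The cause of these shifts was not tested. Of the named peaks and genes 270 values stayed on the same side of the threshold and 4 peak values fell short of it, all with at least 10 counts in every library. The other called peaks that are named had fewer counts in some library, so that filter did not test them. These peaks and genes were chosen for small p-values, so calls that stayed add no independent support. The input had the lowest totals of the 4 tables, and Igf2bp3-RIP the widest spread between libraries (a coefficient of variation of 27.9% per peak and 25.4% per gene, against 2.48% in the input and 5.74% in m6A-RIP).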

Other observations

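On the X chromosome, the nearest Igf2bp3-RIP peaks of Gria3 and Stag2, which both fell in Igf2bp3-RIP and in RNA, lie 533 kb apart, and 2 genes between them had RNA that passed the filter on low counts. Thoc2, of the mRNA export complex THO, fell in RNA from 5.57 and 6.13 CPM in control to 2.41 and 2.49 CPM in Lin28a+ libraries (log2 -1.28 ± 0.14, edgeR adjusted p = 0.0007). Xiap, an inhibitor of caspases, fell from 12.5 CPM in both control libraries to 7.77 and 6.08 CPM (-0.89 ± 0.12, adjusted p = 0.00158). The interval held 15 Igf2bp3-RIP peaks of all genes. It was picked after the values were seen, and nothing about the interval was tested.

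Other families were also counted after their values were seen, and are read against the 39.5% Igf2bp3-only among all genes with a peak and the 28.1% higher and 28.7% lower RNAs among all genes tested. Of 19 Rnf ubiquitin ligase genes 14 were Igf2bp3-only, with 3 higher and 4 lower in RNA, and of 11 forkhead genes 8, with 1 higher and 1 lower. All 3 Pbx homeobox genes were Igf2bp3-only. Histone lysine methyltransferase genes named Kmt gave 2 of 7 and demethylase genes named Kdm 4 of 13.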
